A study of Mus musculus with 6 samples.

Results

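The genes described here are the members of 7 solute carrier (SLC) families that move amino acids and related small molecules across membranes. They were chosen by symbol, as every row of the gene table that belongs to the families Slc1a, Slc3a, Slc6a, Slc7a, Slc36a, Slc38a or Slc43a, with Slc7a11 left out, which gave 59 of 17441 genes. The rule used no measured value. It also takes in members that carry something other than amino acids, such as Slc6a8 (creatine) and Slc43a3 (nucleobases), and 1 gene that is no transporter, Slc7a6os, named for its place beside Slc7a6.

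Hepatocytes take up amino acids from portal blood for protein synthesis, gluconeogenesis and urea synthesis, and glutamine and glutamate are exchanged between hepatocytes near the portal tracts and those around the central veins. Sodium-coupled carriers of the Slc38a family bring in alanine and glutamine, Slc1a carriers take up glutamate or exchange small neutral amino acids, and Slc7a proteins carry cationic or large neutral amino acids. Several Slc7a proteins reach the membrane only when bound to a heavy chain of the Slc3a family. Slc36a carriers and some Slc38a carriers work on the lysosome, where amino acids are sensed by the kinase complex mTORC1.

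RNA from 6 mouse livers was sequenced, 3 labelled as a whole-body, tamoxifen-inducible knockout of the kinase gene Nek7 (labelled iKO) and 3 labelled wild type (WT). Every liver of both groups was taken 10 days after tamoxifen. The Cre driver, strain, age and sex of the mice are not given in the sources used here, and nothing states that the livers of a group came from separate experiments, so p-values measure the spread between these samples only. The comparison addresses how the liver transcriptome differs with the knockout label.

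Library totals were between 18139500 and 19912000 expected counts, and the 9 hepatocyte markers in the table, albumin among them, had at least 8518 expected counts each in every liver. Nek7 itself was at 50.2, 32.8 and 31.0 CPM in the livers labelled iKO and at 55.5, 40.5 and 36.4 CPM in WT, where CPM is an expected count scaled to the library total and the TMM factor. That factor was 0.780 for iKO 1 and between 0.990 and 1.18 for the other livers. The groups overlapped for Nek7 and the gene was not called (edgeR's quasi-likelihood test, adjusted p = 0.541), so the label is not borne out by the gene's total, which cannot show whether a deleted part is missing, and the livers are called "labelled iKO" throughout. WT 2 and WT 3 held 0 reads of the Y-linked genes Ddx3y and Kdm5d, while WT 1 and all 3 livers labelled iKO held 573 to 1113 expected counts of them. Sex, as read from these genes, and label can therefore be told apart only through WT 1, and the called members and the counts of each further gene list are also given from a fit with that difference as a covariate, called the Y-linked covariate. Of 13160 tested genes, 15.4% were called at an adjusted p of at most 0.05, which splits into 7.31% higher and 8.07% lower with the iKO label, and with the Y-linked covariate 1.4% were called.

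Of the 59 genes, 36 had enough reads to be tested, and 9 of these were called, of which 4 were higher and 5 lower with the iKO label. That is 25% of the tested members, beside 15.4% of all tested genes. Slc38a2, Slc6a16, Slc6a8 and Slc1a2 rose, and Slc7a8, Slc1a4, Slc6a6, Slc7a5 and Slc36a1 fell. The median log2 ratio of labelled iKO over WT, as fitted by edgeR, was 0.15 for the 36 genes, beside -0.02 for all tested genes. The groups did not overlap in CPM in 14 of the 36, 7 higher and 7 lower, where 39% of all tested genes had no overlap, 19.8% higher and 19.2% lower. With a Y-linked covariate all 9 kept their direction and 0 kept the call. Leaving out WT 2 left 1 called higher and 3 lower, leaving out iKO 3 left 2 and 3, and 3 were called lower without WT 3 or without iKO 1. On the log2(FPKM + 1) scale, which uses no TMM factors, 2 of the 36 were called higher and 4 lower, while over all genes the split went to 421 higher and 931 lower, against 962 higher and 1062 lower in the main test.

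RefSeq's promoter table lists a window for 43 of the 59 genes and for 6 of the 9 called ones, on build GRCm38.p6, which is not the build of the expression files. The 4 sequences below are the 250 bases before the transcription start, 5′ to 3′ on the strand of the gene. Slc38a2 is shown because it had the largest rise among called members above 10 TPM, and the others because they held a match to a searched motif, which stands in capitals.
Slc38a2, chr15:96699729-96699978, minus strand: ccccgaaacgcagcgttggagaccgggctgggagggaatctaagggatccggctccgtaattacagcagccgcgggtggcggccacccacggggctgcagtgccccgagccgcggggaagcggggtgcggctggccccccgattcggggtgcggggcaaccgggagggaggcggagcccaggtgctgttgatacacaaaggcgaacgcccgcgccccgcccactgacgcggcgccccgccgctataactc
Slc1a2, chr2:102706188-102706437, plus strand: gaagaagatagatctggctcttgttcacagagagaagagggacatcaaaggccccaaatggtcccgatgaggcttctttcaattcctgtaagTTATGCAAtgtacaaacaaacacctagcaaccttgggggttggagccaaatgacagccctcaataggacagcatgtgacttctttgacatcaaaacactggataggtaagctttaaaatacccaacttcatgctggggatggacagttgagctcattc
Slc36a1, chr11:55204090-55204339, plus strand: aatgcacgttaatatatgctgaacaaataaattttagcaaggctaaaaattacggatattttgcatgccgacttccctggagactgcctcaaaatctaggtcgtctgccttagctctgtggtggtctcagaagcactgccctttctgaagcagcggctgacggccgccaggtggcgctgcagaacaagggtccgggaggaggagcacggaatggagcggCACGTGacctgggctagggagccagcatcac
Slc6a16, chr7:45240503-45240752, plus strand: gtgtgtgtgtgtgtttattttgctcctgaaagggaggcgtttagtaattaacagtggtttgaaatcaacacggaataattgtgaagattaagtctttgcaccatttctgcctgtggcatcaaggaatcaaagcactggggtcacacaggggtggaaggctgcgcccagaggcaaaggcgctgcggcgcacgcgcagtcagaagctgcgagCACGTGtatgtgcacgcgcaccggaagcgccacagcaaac
The motifs searched, on both strands, were TGATGNAA, which resembles the element bound by ATF4 and C/EBP factors, the E-box CACGTG, which reads the same on both strands, and TTATGNAA, which resembles the D-box of PAR bZIP factors. No match of 1 overlapped a match of another in these windows. CACGTG stood in 2 of the 6 windows of called genes, beside 6.02% of 32851 windows in the whole table, TTATGNAA in 1 of 6, beside 3.07%, and TGATGNAA in 0 of 6, beside 3.45%. Over the 44 windows of tested members, some of which share a gene, CACGTG stood in 15.9%. The Slc38a2 window is 72.0% G and C with 30 CpG dinucleotides, and the Slc1a2 window is 44.8% with 1. The bases that follow the window were found in the opening stretch of a GENCODE transcript in 4 of the 6, though not always at its first base. Slc36a1 and Slc6a16 were not among them, so their windows may not face the start used in liver. A match is a description of letters and shows no binding. Only these 250 bases were searched, so a window without a match does not show that the gene lacks the motif elsewhere.

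Levels differed between members over more than 3 orders of magnitude. They are compared between genes in TPM, the deposited scale that accounts for transcript length. Slc38a3, the sodium-coupled glutamine and histidine carrier, was by far the most abundant with a level of 1114 ± 106 TPM in livers labelled iKO and 1124 ± 324 TPM in WT (SD, n = 3 each), rank 113 of all genes in the table. Slc38a4, a sodium-coupled neutral amino acid carrier of the liver, followed at 350 ± 108 TPM in livers labelled iKO and 352 ± 52.7 TPM in WT, and Slc6a13 at 176 ± 12.8 TPM in livers labelled iKO and 184 ± 28.8 TPM in WT. These 3 genes together held 73.5% to 75.8% of the summed TPM of the 59 genes in livers labelled iKO and 73.2% to 74.4% in WT. Another 14 genes had a mean between 10 and 100 TPM over all 6 livers, 10 genes between 1 and 10 TPM, and 32 genes less than 1 TPM. The called genes were not the most abundant ones: 0 of the 3 above 100 TPM and 4 of the 14 between 10 and 100 TPM were called.

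**Figure D1:**
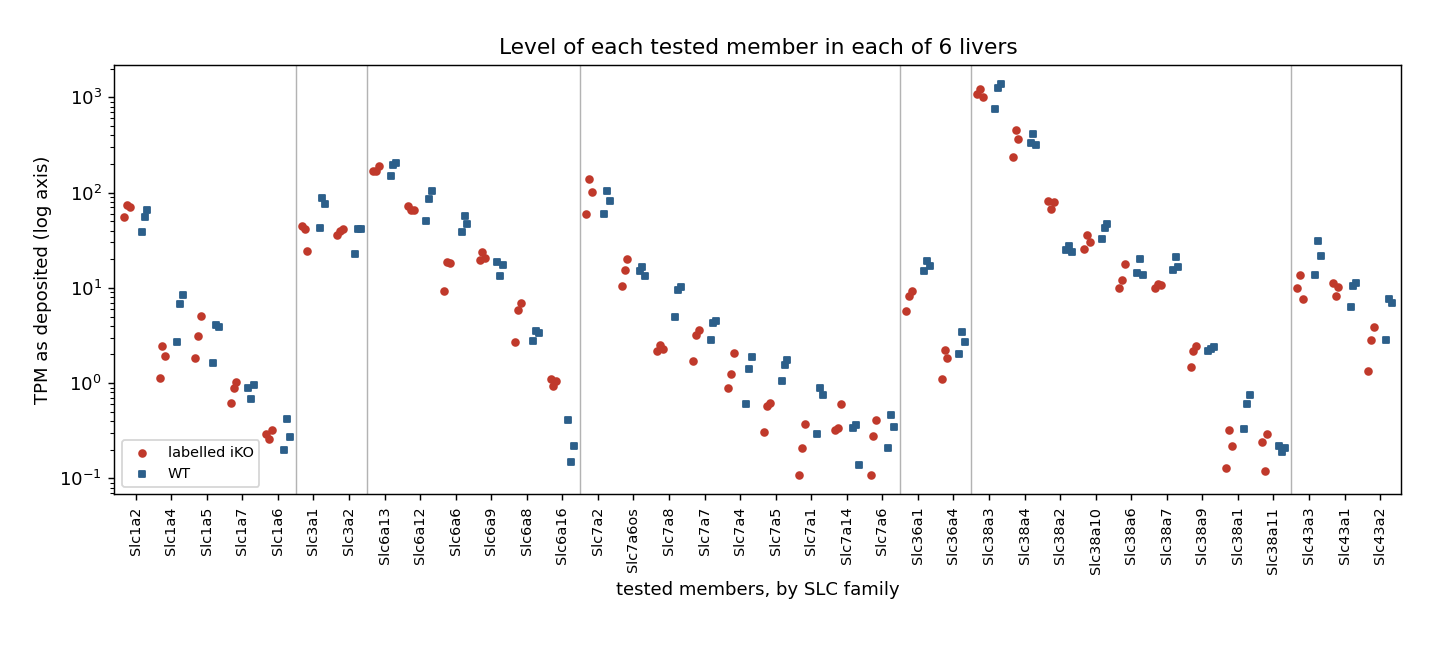
TPM as deposited (log axis) of the 36 tested members in each liver, grouped by SLC family and ordered by mean level, with circles for livers labelled iKO and squares for WT. Slc38a3 stands near 1000 TPM in both groups, while Slc38a2 and Slc6a6 are among the members whose circles and squares separate.

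The Slc38a family dominated this total, with 71.2% to 73.8% of the summed TPM in livers labelled iKO and 70.0% to 70.4% in WT. Slc6a genes held 11.7% to 14.2% in livers labelled iKO and 14.03% to 15.7% in WT. The other 5 families held less than 7% each in every liver. Slc36a genes, the smallest share, held 0.346% to 0.521% in livers labelled iKO and 0.770% to 1.01% in WT. TPM shares depend on every other gene in the total and were not tested.

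Slc38a2, the sodium-coupled alanine and glutamine carrier that cells raise when amino acids are short, had 330, 185 and 213 CPM in the livers labelled iKO, against 71.2, 58.8 and 59.4 CPM in WT. All livers labelled iKO lay above all WT livers, and iKO 1 was the highest. Its log2 ratio of 1.94 (SE 0.24, adjusted p = 0.00211) is a 3.84-fold higher level. The call held whichever library was left out (adjusted p up to 0.0126, without WT 2). With the Y-linked covariate the value was 1.77 (SE 0.39, adjusted p = 0.0695), and WT 1 was the highest of the WT livers.

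The other Slc38a genes were not called. Slc38a3 had 2356, 1784 and 1431 CPM in the livers labelled iKO, against 1143, 1433 and 1816 CPM in WT, so the groups overlapped (log2 ratio 0.34, SE 0.28, adjusted p = 0.417). For Slc38a4 every liver labelled iKO, between 802 and 1041 CPM, was above every WT liver, between 660 and 791 CPM, yet the difference of 0.28 (SE 0.22) was not called (adjusted p = 0.405). In TPM its groups overlapped, with iKO 1 (236) below every WT liver (313 to 412). Slc38a1, close in sequence and function to Slc38a2, went the other way in value, with 0.866, 1.39 and 1.11 CPM in the livers labelled iKO and 1.49, 2.09 and 2.95 CPM in WT (log2 ratio -0.95, adjusted p = 0.109). Slc38a2 stood at 76.7 ± 8.06 TPM in livers labelled iKO and 25.3 ± 1.91 TPM in WT (SD, n = 3 each), so it lay above Slc38a10 in livers labelled iKO, which had 30.6 ± 4.98 TPM there, and below it in WT, where Slc38a10 had 40.5 ± 7.49 TPM. The lysosomal glutamine exporter Slc38a7 was lower in every liver labelled iKO without a call (-0.37, adjusted p = 0.158). The gap was narrow, with iKO 1 at 27.9 CPM and WT 3 at 28.2 CPM. The lysosomal arginine sensor Slc38a9 had a log2 ratio of 0.23 (adjusted p = 0.389). Slc38a6, Slc38a10 and Slc38a11 had values of 0.03, -0.09 and 0.42 and overlapped between groups.

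In the Slc6a family, which carries neurotransmitters, osmolytes and amino acids with sodium and chloride, 2 genes rose and 1 fell. Slc6a6, the taurine transporter, had 48.7, 65.5 and 62.0 CPM in the livers labelled iKO, against 140, 155 and 153 CPM in WT. Each group was tight and the gap between them was wide, with a log2 ratio of -1.34 (SE 0.18, adjusted p = 0.00251), or 39.4% of the WT level. That call held whichever library was left out (adjusted p up to 0.0151, without WT 2). With the Y-linked covariate it was -1.25 (SE 0.25, adjusted p = 0.0516). Expected counts of Slc6a6 were not whole in 5 libraries, so part of its reads may be shared. Its exons overlap Gm44981, a gene on the other strand that GENCODE lists as yet to be tested by experiment. Gm44981 is not among the genes with deposited counts, so the counts that were not whole cannot be tied to it.

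Slc6a8, the creatine transporter, had 9.46, 13.9 and 15.9 CPM in the livers labelled iKO, against 6.69, 6.48 and 7.20 CPM in WT. In CPM, WT livers lay within a narrow range and all livers labelled iKO were above it, with iKO 1 the nearest. In TPM the groups overlapped, with iKO 1 (2.73) below every WT liver (2.77 to 3.55). The log2 ratio was 0.95 (SE 0.22, adjusted p = 0.0209). Its call ended without WT 2 (adjusted p = 0.0818) or iKO 3 (0.0649), and on the log2(FPKM + 1) scale, where the value was 0.52 (adjusted p = 0.170 by limma). With the Y-linked covariate the value was 0.97 (SE 0.34, adjusted p = 0.205).

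Slc6a16, an orphan member of the family, had 46, 33 and 37 expected counts in the livers labelled iKO and 15, 5 and 8 in WT, which is 3.06, 1.77 and 1.92 CPM in livers labelled iKO and 0.797, 0.222 and 0.387 CPM in WT. The groups did not overlap, but the gene is near the lower limit of the test. Its log2 ratio of 2.27 (SE 0.49, adjusted p = 0.0170) was the largest in size of the 36 tested members. The call ended without WT 2 (adjusted p = 0.0749) or WT 3 (0.0577), and with the Y-linked covariate the value was 1.48 (SE 0.59, adjusted p = 0.261).

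Slc6a13, which carries GABA and taurine, and Slc6a12, which carries betaine and GABA, had log2 ratios of -0.02 and 0.08. Slc6a13 was at 243, 182 and 183 CPM in the livers labelled iKO, against 192, 190 and 234 CPM in WT, and the groups overlapped throughout. The glycine transporter Slc6a9 had 52.4, 44.1 and 36.5 CPM in the livers labelled iKO and 36.1, 19.4 and 29.5 CPM in WT. These groups did not overlap, by a margin of less than 1 CPM, and the value of 0.65 (SE 0.23) was not called (adjusted p = 0.0874). Exons of Slc6a9 overlap those of B4galt2 and Ccdc24 on the other strand, and without knowledge of strand in the counting their reads cannot be told apart.

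**Figure D2:**
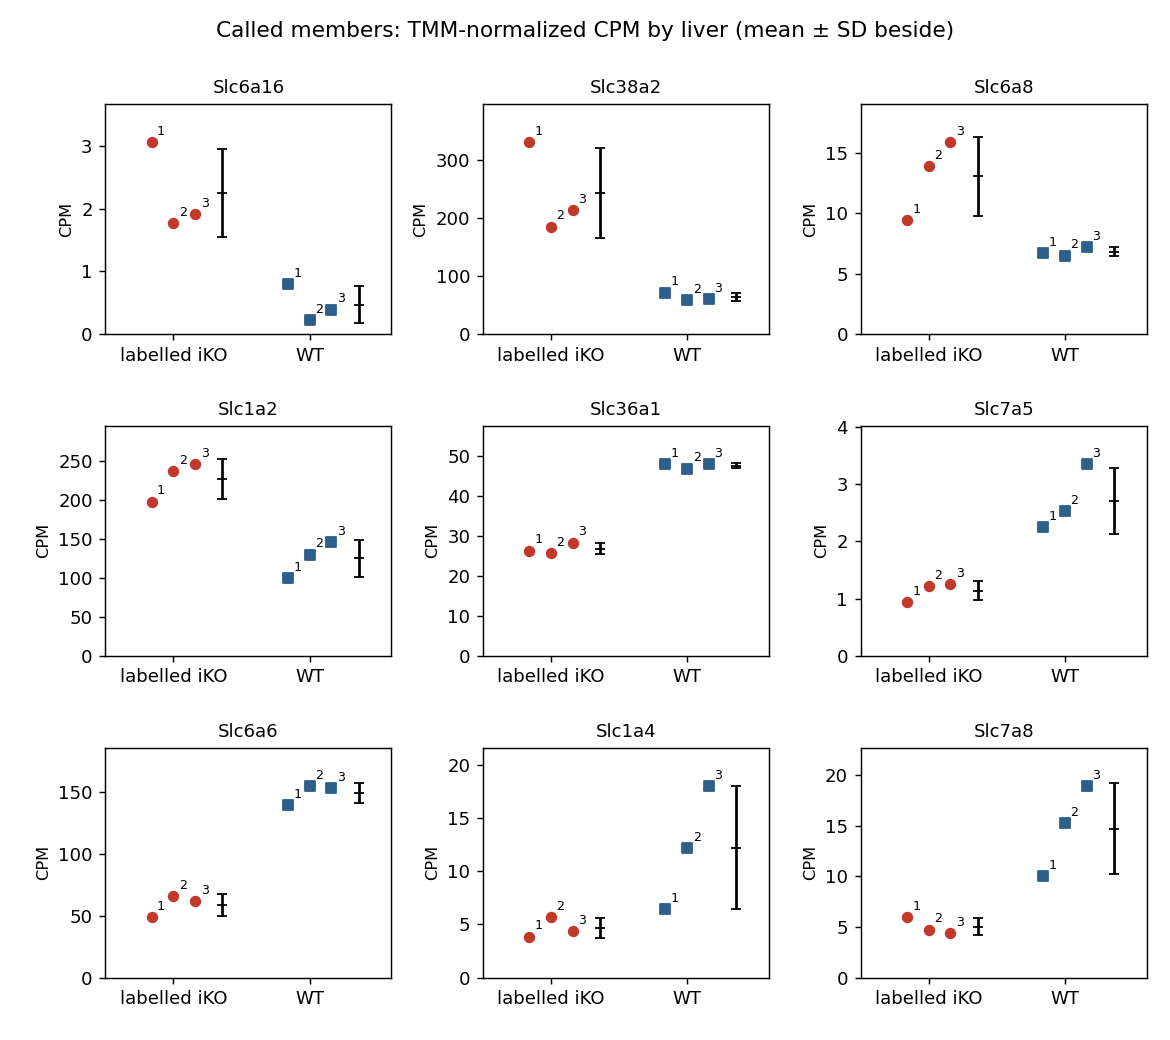
TMM-normalized CPM of the 9 called members in each liver, labelled iKO left and WT right, with replicate numbers beside the points and bars for mean ± SD (n = 3). Slc36a1 and Slc6a6 have tight groups, while Slc1a4 has WT 1 at 6.48 CPM close to the highest liver labelled iKO at 5.68 CPM.

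Among the glutamate and neutral amino acid carriers of the Slc1a family, 1 rose and 1 fell. Slc1a2, the glial-type glutamate transporter that in liver is found in hepatocytes around the central vein, had 198, 236 and 246 CPM in the livers labelled iKO, against 99.5, 130 and 146 CPM in WT. The groups did not overlap in CPM, and WT 1 was the lowest of all livers. In TPM they overlapped, with iKO 1 (55.7) below WT 3 (66.0). The log2 ratio was 0.86 (SE 0.20, adjusted p = 0.0237). Without WT 1 the adjusted p was 0.0642, without WT 2 0.0816 and without iKO 3 0.0589, each above the threshold of 0.05, and on the log2(FPKM + 1) scale the value was 0.47 (adjusted p = 0.115 by limma). With the Y-linked covariate the value was 1.19 (SE 0.29, adjusted p = 0.0982), and with that covariate together with an offset for transcript length it was 1.40 (SE 0.27, adjusted p = 0.0488). An antisense gene that is not among the genes with deposited counts overlaps Slc1a2 in GENCODE, and none of the 6 libraries gave Slc1a2 a whole expected count. Of 14 pericentral hepatocyte markers 2 were called higher and 2 lower with a median of -0.07, and of 14 periportal markers 3 were higher and 1 lower with a median of 0.30. In each list 28.6% of the genes were called, beside 15.4% of all tested genes. Axin2 and Lgr5, 2 Wnt targets of pericentral cells, had log2 values of -1.37 (SE 0.24, adjusted p = 0.00861) and -1.55 (SE 0.29, adjusted p = 0.01004), while Cyp2a5 rose by 1.27 and the ammonia transporter Rhbg by 0.68 (adjusted p = 0.0303 and 0.0382, all from edgeR). The 8 genes called in these lists kept their direction with the Y-linked covariate, and 2 kept the call, which were Cyp2a5 (2.13, adjusted p = 0.0368) and the periportal serine dehydratase Sds (2.35, adjusted p = 0.0199).

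Slc1a4, an exchanger of alanine, serine and cysteine, had 3.86, 5.68 and 4.36 CPM in the livers labelled iKO, against 6.48, 12.2 and 18.03 CPM in WT. The groups did not overlap, but WT 1 was nearer to the livers labelled iKO than to WT 2 and WT 3. The value was -1.40 (SE 0.35, adjusted p = 0.0304), and it was -0.48 (SE 0.33, adjusted p = 0.484) with the Y-linked covariate. The call also ended without WT 2, WT 3, iKO 1 or iKO 3 (adjusted p up to 0.0983, without iKO 1) with the transcript length offset (0.0534) and by limma-voom (0.0616). Its close relative Slc1a5, a glutamine exchanger, had 4.26, 4.88 and 7.78 CPM in the livers labelled iKO and 2.71, 4.97 and 5.70 CPM in WT, with a log2 ratio of 0.34 (adjusted p = 0.510). Slc1a6 and Slc1a7, glutamate transporters best known from brain and retina, were near 1 CPM and both had log2 ratios of 0.34.

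Within the Slc7a family both called genes were light chains that carry large neutral amino acids, and both were lower. Slc7a8 had 5.98, 4.73 and 4.39 CPM in the livers labelled iKO, against 9.99, 15.2 and 18.9 CPM in WT. All livers labelled iKO were under the lowest WT liver, which was WT 1. Slc7a8 fell by 1.55 in log2 (SE 0.26, adjusted p = 0.00647), to 34.2% of the WT level, and the call held whichever library was left out (adjusted p up to 0.0302, without WT 2). With the Y-linked covariate the value was -0.99 (SE 0.27, adjusted p = 0.129).

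Slc7a5, the light chain that brings leucine into growing cells, had 0.943, 1.21 and 1.25 CPM in the livers labelled iKO, against 2.25, 2.52 and 3.35 CPM in WT. Both groups were low and did not overlap. The log2 ratio was -1.24 (SE 0.32, adjusted p = 0.0333), and of the 6 fits without 1 library each, the call held in the 1 without WT 1 (the adjusted p reached 0.117, without WT 3). It was -0.96 (SE 0.43, adjusted p = 0.310) with the Y-linked covariate and -1.09 (SE 0.31, adjusted p = 0.0515) with the transcript length offset. Neither Slc7a5 nor Slc7a8 had a whole expected count in any of the 6 libraries, which leaves room for reads shared with similar genes.

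Slc7a2, the cationic amino acid carrier through which hepatocytes take up arginine and the most abundant Slc7a gene, had 405, 634 and 459 CPM in the livers labelled iKO, against 280, 369 and 340 CPM in WT. The groups did not overlap in CPM, though in TPM iKO 1 (59.6) was below WT 2 (103). The log2 ratio of 0.60 (SE 0.23) was not called (adjusted p = 0.105). DESeq2 called it (adjusted p = 0.0309), as did the test with the transcript length offset (0.0250). The related carrier Slc7a1, which most other cells use, had 0.667, 0.870 and 1.54 CPM in the livers labelled iKO and 1.24, 2.76 and 2.96 CPM in WT, with a log2 ratio of -1.15 (SE 0.45, adjusted p = 0.109). Slc7a1 was called lower without WT 1 (adjusted p = 0.0496). Slc7a7 and Slc7a6, light chains that exchange cationic for neutral amino acids, had log2 ratios of -0.30 and -0.06, and Slc7a4 and Slc7a14 values of 0.30 and 0.89 (adjusted p = 0.669 and 0.160). Slc7a6os, the gene that is no transporter, had a value of 0.32 (adjusted p = 0.242).

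The heavy chains that these light chains bind were not called. Slc3a2, the partner of Slc7a5, Slc7a6, Slc7a7 and Slc7a8, had 64.9, 50.8 and 48.6 CPM in the livers labelled iKO, against 32.98, 45.4 and 52.7 CPM in WT. The groups overlapped and the log2 ratio was 0.33 (SE 0.20, adjusted p = 0.296). Slc3a1, the partner of Slc7a9 in kidney and gut, had 88.9, 56.4 and 31.9 CPM in the livers labelled iKO, against 59.4, 92.3 and 93.8 CPM in WT. Its livers labelled iKO were spread widely, and the value of -0.47 (SE 0.35) was not called (adjusted p = 0.391). Exons of Slc3a1 overlap those of Prepl on the other strand. None of the 6 libraries gave Slc3a1 a whole expected count, so part of its reads may be shared. The light chain of Slc3a1, Slc7a9, had at most 2 expected counts in any liver, while Slc3a1 averaged 36.8 ± 10.97 TPM in livers labelled iKO and 68.8 ± 23.4 TPM in WT (SD, n = 3 each).

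Slc36a1, the proton-coupled amino acid carrier of the lysosome, had 26.3, 25.7 and 28.3 CPM in the livers labelled iKO, against 48.0, 46.9 and 48.0 CPM in WT. The spread within each group was small beside the gap, and WT 1 stood with WT 2 and WT 3. None of the 6 libraries gave Slc36a1 a whole expected count, so part of its reads may be shared. Slc36a1 fell by 0.83 in log2 (SE 0.14, adjusted p = 0.00625), to 56.3% of the WT level, and the call held whichever library was left out (adjusted p up to 0.0416, without WT 2). With the Y-linked covariate the value was -0.84 (SE 0.20, adjusted p = 0.0887). With the transcript length offset it was -0.57 (SE 0.15, adjusted p = 0.0360). Slc36a4, a relative, had a log2 ratio of -0.36 (adjusted p = 0.267).

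The Slc43a family, carriers of large neutral amino acids except for Slc43a3, had no called member of 3, although 2 had an unadjusted p under 0.05. Slc43a3 had 21.0, 20.0 and 10.8 CPM in the livers labelled iKO, against 20.8, 35.1 and 29.0 CPM in WT, so WT 1 lay among the livers labelled iKO (log2 ratio -0.72, adjusted p = 0.108). Slc43a2 showed the same arrangement, with 7.78, 11.4 and 15.0 CPM in the livers labelled iKO and 11.7, 24.5 and 25.4 CPM in WT (-0.85, adjusted p = 0.111), and it was called lower without WT 1 (adjusted p = 0.0228). Slc43a1 had a log2 ratio of 0.49 (adjusted p = 0.261).

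**Figure D3:**
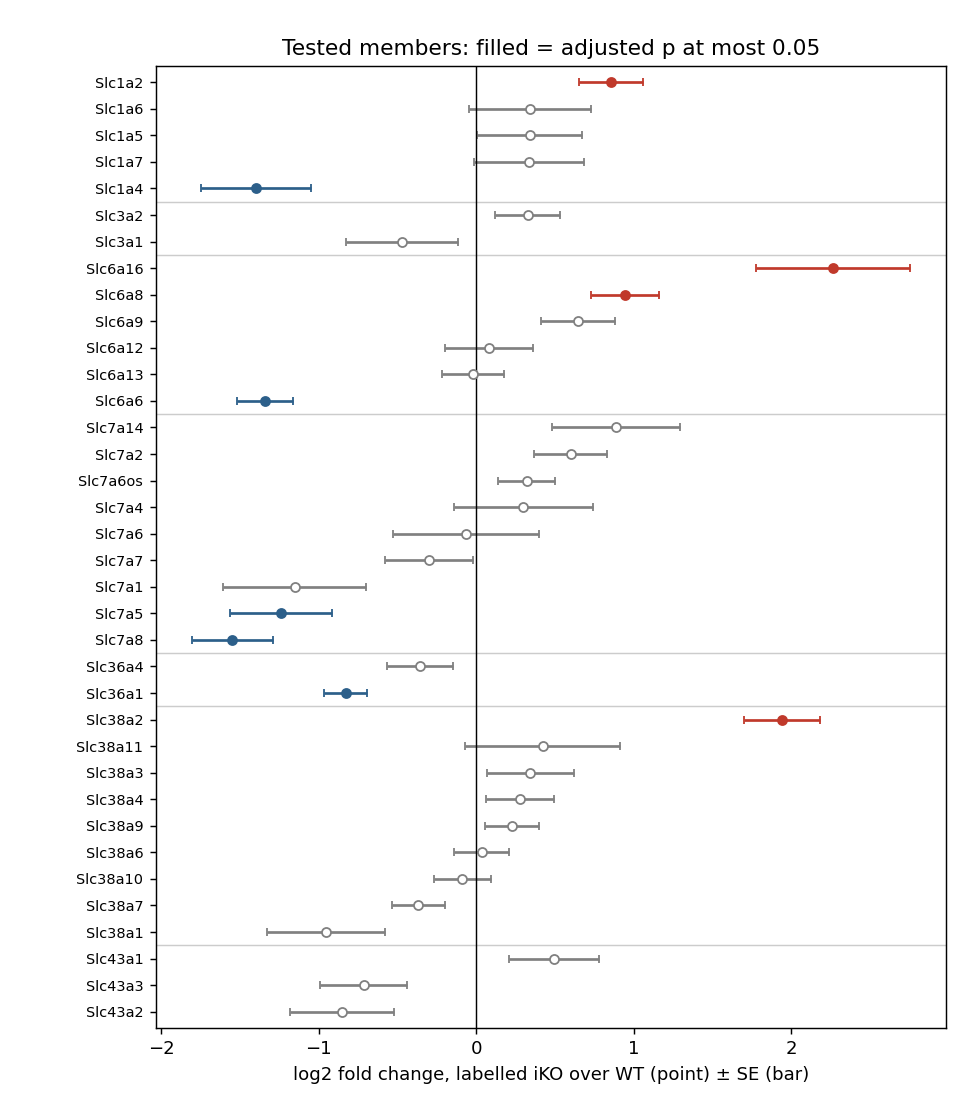
Log2 ratio (fold change) of the 36 tested members, labelled iKO over WT, by SLC family, with bars for ± SE and filled points for an adjusted p of at most 0.05. Filled points lie on both sides of 0 within the Slc1a and Slc6a families, from 2.27 for Slc6a16 to -1.55 for Slc7a8.

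The 23 members that were not tested had at most 15.0 expected counts and at most 0.801 CPM in any liver, and none reached a mean of 1 TPM. Among them are the glutamate transporters Slc1a1 and Slc1a3; the Slc6a carriers of noradrenaline (Slc6a2), dopamine (Slc6a3), serotonin (Slc6a4), glycine (Slc6a5) and proline (Slc6a7); and Slc6a14, Slc6a17, Slc6a18, Slc6a19, Slc6a20a, Slc6a20b and Slc6a21. Also among them are Slc7a3, Slc7a9, Slc7a10, Slc7a13 and Slc7a15, with Slc36a2, Slc38a5 and Slc38a8. Slc6a3 and Slc6a20a had 0 counts in all 6 livers, where a count of 0 allows up to 3 counts, or 0.133 to 0.1998 CPM by library, for counting error only. Slc38a5, the carrier closest to Slc38a3, had 0, 0 and 0 expected counts in the livers labelled iKO and 0, 3 and 2 in WT. No difference is read from these levels.

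Markers of stellate, Kupffer, sinusoidal endothelial cells and neutrophils included called genes, all of them lower with the iKO label. The T and NK cell, erythroid, cholangiocyte and hepatocyte marker lists had medians above 0. Summed over 14 stellate cell markers the level was 265 to 341 CPM in livers labelled iKO and 526 to 934 CPM in WT. Of the 14 tested genes 8 were called lower, or 57.1%, beside 8.07% of all tested genes. Kupffer cell markers (12 genes, 6 or 50% lower) summed to 320 to 406 CPM in livers labelled iKO and 450 to 850 CPM in WT, and sinusoidal endothelial markers (14 genes, 6 or 42.9% lower) to 97.8 to 203 CPM in livers labelled iKO and 239 to 376 CPM in WT. In all 3 lists WT 1 was the lowest WT liver, as it was for Slc7a8, Slc7a5, Slc1a4 and Slc6a6 among the called members that fell. Of 10 neutrophil markers 5 (50%) were lower. Their sums overlapped, at 19.1 to 47.0 CPM in livers labelled iKO and 32.7 to 132 CPM in WT. WT 3 was far the highest at 132 CPM, with WT 1 at 32.7 and WT 2 at 49.1 CPM. Retnlg and Csf3r had log2 ratios of 0.14 and 0.74 and were not called. Mpo, which was called, had 1, 2 and 5 expected counts in the livers labelled iKO. In the fit with the Y-linked covariate 3 stellate markers were called lower, Reln (-1.95, adjusted p = 0.00887), Lrat (-2.57, adjusted p = 0.00911) and Ngfr (-2.56, adjusted p = 0.0243), as was 1 neutrophil marker, Mpo (-3.77, adjusted p = 0.0415), and no Kupffer or endothelial marker was called (0 of 12 and 0 of 14), although every gene called in these 4 lists kept their direction. T and NK cell markers (0 of 9 called, 6.74 to 10.1 CPM in livers labelled iKO, 6.52 to 9.74 CPM in WT), erythroid markers (0 of 6 called, 163 to 843 CPM in livers labelled iKO, 246 to 417 CPM in WT) and cholangiocyte markers (1 of 10 lower, 97.5 to 463 CPM in livers labelled iKO, 167 to 262 CPM in WT) overlapped between groups, with median log2 ratios of 0.15, 0.33 and 0.24, and 0 of their genes were called with the covariate. Of 9 hepatocyte markers 1 was called, or 11.1%, beside 15.4% of all tested genes. It was Hnf4a, higher by 0.79 in log2 (SE 0.22, adjusted p = 0.0414 by edgeR). The hepatocyte list had a median of 0.20. Its sums overlapped, at 108771 to 122740 CPM in livers labelled iKO and 109769 to 122742 CPM in WT. No marker of these lists was at 0 in all 6 livers. In whole liver, fewer cells of a type and less RNA per cell cannot be told apart, and the part of these cells in the falls of the carriers was not tested.

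Transcript length also moved with the comparison. Effective transcript length and log2 ratio had a Spearman's rho of -0.35 across 12995 tested genes, and genes are not independent of each other. The tested members had a median effective length of 3545 bases, beside 2822 bases for all tested genes. With an offset for this trend 11.5% of all genes were called, and of the 36 tested members 5 were called higher and 3 lower. Of the 9 members called in the main test, 7 were called again in the same direction, and Slc1a4 and Slc7a5 were the 2 that were not.

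**Figure D4:**
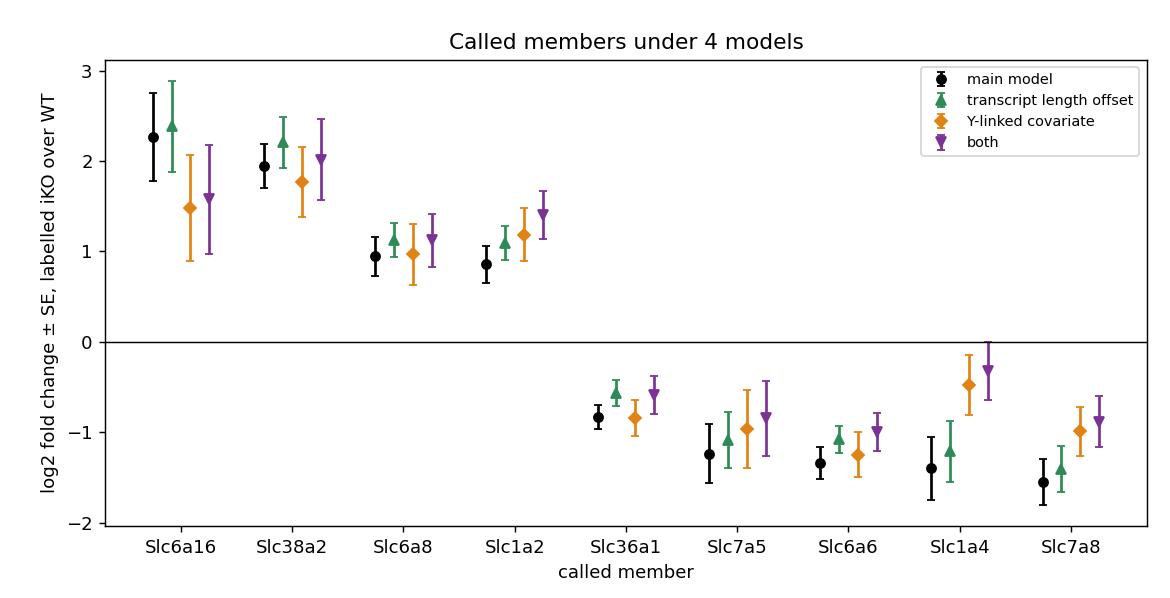
Log2 ratio (fold change) ± SE of the 9 called members, labelled iKO over WT, in the main test, with an offset for transcript length, with the Y-linked covariate, and with both. No point crosses 0, and Slc1a4 moves most, from -1.40 in the main test to -0.48 with the Y-linked covariate and -0.33 with both.

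Genes of the response to amino acid shortage through the transcription factor ATF4, whose known targets include Slc38a2, did not move as a block. The list counted is wider than the targets of ATF4. It holds Atf4 itself and the kinase gene Eif2ak4, which was among those called lower (log2 ratio -0.74, SE 0.19). Of 32 tested genes 5 were higher and 3 lower, 25.0% of the list beside 15.4% of all genes, with a median log2 ratio of 0.21. Cebpb, a transcription factor of the same pathway, averaged 332 CPM in livers labelled iKO and 82.9 CPM in WT (log2 ratio 2.00, SE 0.26, adjusted p = 0.00238). The translation inhibitor Eif4ebp1 had a log2 value of 1.10 (SE 0.19, adjusted p = 0.00747), the phosphatase subunit Ppp1r15a one of 1.17 (SE 0.28, adjusted p = 0.0262), and the threonyl-tRNA synthetase Tars one of -1.43 (SE 0.26, adjusted p = 0.00960). Atf4 itself had a value of 0.23 (adjusted p = 0.425), and its target Asns, asparagine synthetase, one of 1.35 with a wide error (SE 0.62, adjusted p = 0.171); both were picked out after their values were seen. All 8 called genes kept their direction with the Y-linked covariate and 0 kept the call, with Tars at -1.67 (adjusted p = 0.0546) and Cebpb at 1.78 (adjusted p = 0.0797).

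Of 33 tested genes of amino acid sensing and mTORC1, 4 were higher and 5 lower, 27.3% of the list beside 15.4% of all genes, with a median of -0.09. The falls included Tsc1, an inhibitor of the pathway (-0.94, SE 0.14, adjusted p = 0.00473), the leucine-sensor relative Sesn3 (-1.81, SE 0.34, adjusted p = 0.0109), the scaffold Rptor (-0.74, SE 0.16, adjusted p = 0.0171) and Depdc5, part of the GATOR complex (-0.73, SE 0.17, adjusted p = 0.0244). Castor2, a relative of the arginine sensor Castor1, also fell (-1.12, adjusted p = 0.0306). The rises were Lamtor3, Lamtor4 and Lamtor5, subunits of the lysosomal anchor of mTORC1, and the GTPase Rheb, between 0.56 and 0.75 on the log2 scale; these 4 and Castor2 were named after their values were seen. All 9 kept their direction under the Y-linked covariate and 0 kept the call, and Tsc1 was at -0.96 (adjusted p = 0.0678). Effective transcript lengths were 828 to 1472 bases for the 4 rises and 4734 to 7641 bases for Tsc1, Rptor, Depdc5 and Castor2. Sesn3 had 2112 bases, and the median of all tested genes was 2822 bases. The part of transcript length in these calls was not tested. Genes of both directions thus stood beside the lower lysosomal carrier Slc36a1 and the uncalled Slc38a9.

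Amino acid carriers of other SLC families had 2 genes higher and 1 lower among 14 tested, 21.4% beside 15.4% of all genes, with a median of 0.24. The mitochondrial glutamate carrier Slc25a22 rose by 1.39 (SE 0.20, adjusted p = 0.00332) and the mitochondrial glycine carrier Slc25a38 by 0.76 (SE 0.17, adjusted p = 0.0194), both log2 values. Slc15a3, a lysosomal carrier of histidine and small peptides, fell by 1.40 (SE 0.27, adjusted p = 0.0113). Among 8 tested partners and regulators of the carriers, the ubiquitin ligase Rnf5 was the 1 called gene (12.5%), higher by 0.62 (SE 0.18, adjusted p = 0.0470). These 4 called genes kept their direction with the Y-linked covariate and 0 kept the call, with Slc25a22 at 1.52 (adjusted p = 0.0628). The left-out cystine carrier Slc7a11 had at most 4.36 expected counts in any liver and was not tested.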

How the data were processed

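Mouse build mm9 and the tools HISAT2 2.0.4, Bowtie2 2.2.5 and RSEM 1.2.12 are named in the submitters' processing notes; their roles and the use of strand are not given in the sources used here. In 1 table of 17441 genes the authors deposited 3 units per library. The expected counts the authors deposited are estimates that need not be whole. The deposited FPKM correct for depth and transcript length. The deposited TPM are rescaled to 1 total per library, so in both units a few abundant genes can shift all others. RSEM can split reads between similar genes. As a sign of that, expected counts that were not whole (tolerance 0.001) in any of the 6 libraries were noted. This held for 16 of the 36 tested members and 4 of the 9 called ones, beside 4181 of all 17441 genes.

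Expected counts were rounded and tested over the whole table with edgeR 4.0.16 in R 4.3.3 (filterByExpr, TMM, robust quasi-likelihood F test, Benjamini-Hochberg over 13160 genes, threshold 0.05). Log2 ratios are edgeR's log2 fold changes, and SE was taken as their size divided by the root of F. Counting error weighs most on members near or under 1 CPM, and its size was not measured apart. All pairs of libraries differed by more than sampling noise (chi-square per degree of freedom at least 35.9). All members but 1, which is not reported here, are named. Values per liver are given for called members and the most abundant member of each family, and for others where useful. Of each further list of amino acid genes, and of the pericentral list, up to 4 called genes are named by adjusted p. For the other cell type lists that order was not followed and not every called gene is named. Genes named there or beyond these were picked after their values were seen. Members, lists and alternatives were chosen with earlier results of these data known. The alternatives were upper-quartile or RLE factors, a filter of 1 count in 1 library in place of filterByExpr, DESeq2 1.42.0, limma 3.58.1 (voom, and trend on log2(FPKM + 1) or on log2(FPKM + 0.1)), the replicate number as a block, each library left out in turn, a Y-linked covariate, whether a library held Y-linked reads (Ddx3y and Kdm5d over 10 expected counts together), the libraries with such reads alone, and an offset for the lowess trend (span 0.3) over effective length, taken where FPKM reached 0.2. The Y-linked covariate and the length offset together were added after seeing the data. Promoters are from RefSeq, GRCm38.p6. 0 columns of other samples were in the table.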

Additional observations from a re-analysis of the deposited data

How the results depend on the processing

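Against 4 members called higher and 5 lower, the count was 2 higher on both FPKM scales and 3 lower with the transcript length offset. It was 0 and 0 with the Y-linked covariate and 0 and 0 in the 4 libraries with such reads, and 1 and 0 with that covariate and the length offset together. When 1 library was left out, the counts ranged from 1 to 4 higher and from 3 to 7 lower. Over all genes, against 962 higher and 1062 lower, the counts were 421 higher on log2(FPKM + 1), 427 higher on log2(FPKM + 0.1), 78 and 106 with the Y-linked covariate, 66 and 77 in the libraries with such reads, and 85 and 82 with both corrections; without 1 library they ranged from 228 to 922 higher and from 263 to 1096 lower, with the fewest without WT 2. On the FPKM scales the median of all genes was -0.12 and -0.20, beside -0.02 in the main test, and the cause of the differences between settings was not tested. All 9 called members kept their direction in all 18 alternatives, and RLE and upper-quartile factors, no filter and DESeq2 kept all 9 calls. On log2(FPKM + 1), where the pseudocount is large beside low genes, Slc6a16 was at 0.52 and Slc7a5 at -0.48. Of the 27 members not called, Slc43a2, Slc6a9, Slc7a1 and Slc7a2 were called in 1 or 2 alternatives each. Same-numbered livers of the 2 groups had deviations correlated at 0.20, 0.20 and 0.05. iKO 1 and iKO 2 went best with the WT liver of their own number, and iKO 3 went best with WT 2 (0.31). Whether livers of 1 number share a batch was not tested. A replicate block kept all 9 calls, adding Slc43a2, and called 1710 genes. Depth limits the 23 untested members and those near 1 CPM, and the contrast with the Y-linked covariate rests on 1 WT liver.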
